A study of Mus musculus with 96 samples.

Results

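The cytosolic ribosomal protein genes were taken by symbol: Rpl or Rps followed by a number, with a trailing a, x or l allowed, plus Rpsa, Rplp0, Rplp1 and Rplp2. Pseudogene symbols ending in -ps, the Rps6k kinases and Rps19bp1 were left out. The rule gave 83 of the 49466 genes in the count table, 32 named for the small (40S) subunit and 51 for the large (60S) subunit. Of these 83 genes, 81 had at least 1 read, and 79 reached 10 reads per 1000000 gene reads (CPM) in at least 1 of the 4 sorted populations. The other 4, Rpl6l, Rpl39l, Rpl3l and Rpl10l, stayed below that level.

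The study sorted single erythroid progenitors into 1 plate, from embryonic day 14.5 livers of the C57/Bl6J strain, and sequenced them with Smart-seq2, a full-length single-cell RNA method. Red cells had been lysed and lineage-positive cells depleted with antibodies that included Ter119, CD11b, CD16/32, CD41 and Sca-1, and the remaining cells were stained for CD117, CD71 and CD24. The 4 gates, each of 24 wells, were burst forming unit-erythroid cells (BFUE, the earlier progenitor), colony forming unit-erythroid cells (CFUE, the later progenitor), and a lower and an upper intermediate. The intermediates are labelled by 25 to 35% and 50 to 60% of CD71/CD24 expression. The labels name no transgene, treatment, animal or litter, so each gate was handled as 1 sample; its wells are cells and not replicates, and gates are compared below without a test. The gates also occupied separate plate columns (BFUE 1 to 3, lower intermediate 4 to 6, upper intermediate 7 to 9, CFUE 10 to 12), so gate and plate column cannot be told apart.

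Of the 96 wells, 5 held only 10596 to 16644 reads and were left out, which left 23 BFUE, 21 lower intermediate, 24 upper intermediate and 23 CFUE wells with 947458 to 3785903 reads each. The 5 erythroid markers used (Gata1, Klf1, Epor, Slc4a1 and Hba-a1) summed to a median of 1542 CPM in the lower intermediate, 1856 CPM in the upper intermediate and 2775 CPM in CFUE wells. Within BFUE, 8 wells carried Cd34 at 1036 to 2202 CPM and 15 carried it at 0 to 5.16 CPM; they are called Cd34-high and Cd34-low here and are a description, not groups of the study. The Cd34-low wells had 699.2 to 1917 CPM of the erythroid markers, and the Cd34-high wells had only 8.96 to 98.9 CPM. The Cd34-high wells instead held neutrophil and monocyte markers (7 of 8 with reads, Elane at 0) at 350.0 to 7041 CPM, against 1.32 to 183.8 CPM in Cd34-low wells. Lymphoid markers (4 of 6 with reads, Dntt and Cd3e at 0) summed to 0.58 to 1579 CPM in Cd34-high and at most 5.58 CPM in Cd34-low wells. Stem and multipotent markers other than Cd34 (4 of 4 with reads) summed to 187.8 to 1449 CPM in Cd34-high wells and to at most 3.72 CPM in Cd34-low wells, where Mecom was at 0. Megakaryocyte markers (4 of 5 with reads, Pf4 at 0) had a median sum of 160.2 CPM in Cd34-high wells (5.80 to 696.1) and of 75.1 CPM in Cd34-low wells (0.62 to 1410). Hepatoblast markers (6 of 6 with reads) had a median sum of 212.3 CPM (52.6 to 367.4) and of 146.4 CPM (13.5 to 1445). Both of these lists overlapped between the Cd34-high and Cd34-low wells. Macrophage markers had a median sum of 0 in both, with C1qa, C1qb and Vcam1 at 0, and reached at most 42.6 CPM in Cd34-high and 60.2 CPM in Cd34-low wells. The label BFUE therefore fits the erythroid markers in 15 of the 23 wells, and counts of members between BFUE and the later gates are also given for the Cd34-low wells.

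Ribosomal proteins assemble with ribosomal RNA into the 40S subunit, which decodes mRNA, and the 60S subunit, which joins amino acids, and nearly all are needed in equal number. Their mRNAs are among the most abundant of a dividing cell, and most begin with a run of pyrimidines (the TOP motif) through which mTOR and Larp1 control their translation as a group. Loss of a single copy of several of these genes causes Diamond-Blackfan anaemia, in which erythroid progenitors fail. A few members have paralogs, and the pairs Rps27 and Rps27l, Rpl36a and Rpl36al, Rps4x and Rps4l, Rpl6 and Rpl6l, Rpl39 and Rpl39l, Rpl3 and Rpl3l, and Rpl10 and Rpl10l were examined for a paralog that departs from the rest.

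In the pairs of Rps27l and Rpl36al the paralog held a large share of the pair's reads (a share not corrected for length). The coding sequences of the pair of Rps27l are printed to show how a read is assigned to one copy. The sequences are those of GENCODE on GRCm38, 5′ to 3′ on the coding strand, and capitals mark every base that differs between the copies. Rps27l lies at chr9:66946086-66949516 on the plus strand and Rps27 at chr3:90212522-90213651 on the minus strand, and their whole reading frames are 255 bases long.
Rps27l: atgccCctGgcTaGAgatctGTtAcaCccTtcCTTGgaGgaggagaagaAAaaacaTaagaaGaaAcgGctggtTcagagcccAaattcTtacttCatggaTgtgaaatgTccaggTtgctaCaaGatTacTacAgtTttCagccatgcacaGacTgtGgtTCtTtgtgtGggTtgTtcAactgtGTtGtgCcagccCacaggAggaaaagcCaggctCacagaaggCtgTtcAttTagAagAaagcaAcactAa
Rps27: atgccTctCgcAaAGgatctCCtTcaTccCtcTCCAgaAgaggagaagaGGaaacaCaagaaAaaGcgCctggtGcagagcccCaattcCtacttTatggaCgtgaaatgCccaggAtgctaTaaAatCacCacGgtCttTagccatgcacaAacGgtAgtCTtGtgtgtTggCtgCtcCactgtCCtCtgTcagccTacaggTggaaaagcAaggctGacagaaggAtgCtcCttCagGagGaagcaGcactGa
The frames differ at 61 of 255 bases, 53 of them at the third position of a codon, and the longest identical stretch is 11 bases. All 206 windows of 50 bases hold at least 1 difference, so a coding read of that length separates these copies. The same is not true against other loci: 98.6% of the 50-base words of the Rps27 transcript also occur in Rps27rt, and 62.7% of those of Rpl36a occur in the pseudogene Rpl36a-ps2. Over all 83 genes the median share of 50-base words found nowhere else in the annotated transcripts was 44.5%, and 18 genes had under 20%. How reads with several matches were counted is not given in the sources used here, so levels of such genes are uncertain.

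**Figure D1:**
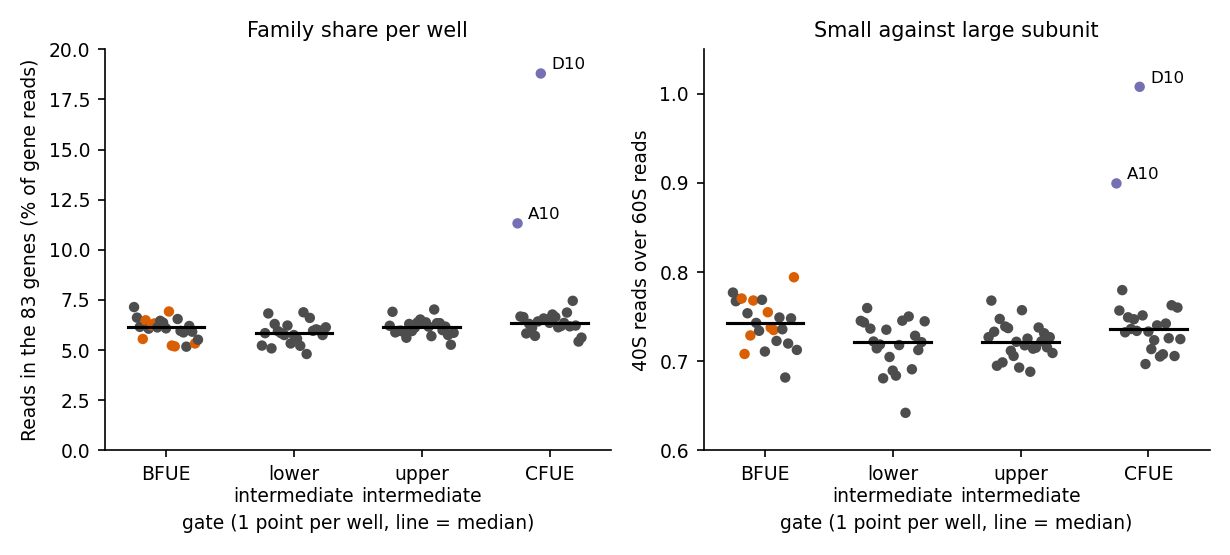
Left, percent of gene reads in the 83 ribosomal protein genes per well (y axis) by gate (x axis); right, reads of 40S genes over reads of 60S genes. Each point is 1 well, black lines are medians over the wells of a gate, orange points are Cd34-high BFUE wells, and the CFUE wells A10 and D10 stand at 11.3% and 18.8%, above the 4.80 to 7.45% of the other 89 wells.

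The family's median share of reads was similar in the 4 gates, from 5.84 to 6.36%, while single wells spread more widely. In BFUE it ranged from 5.17 to 7.14% with a median of 6.13% (SD over wells 0.541). The lower intermediate ran from 4.80 to 6.88%, median 5.84% (SD 0.545), and the upper from 5.27 to 7.02%, median 6.14% (SD 0.390). CFUE wells started at 5.42% and had a median of 6.36%, and 2 of them lay far above the rest, at 11.3 and 18.8%. Without those 2 wells CFUE ranged to 7.45%, and the 4 gates overlapped over most of their range, as the plot of family share per well shows. Summed over wells the share was 6.08% in BFUE, 5.89% in the lower and 6.14% in the upper intermediate, and 6.87% in CFUE, or 6.34% without the 2 wells. Within BFUE the Cd34-high wells had a median of 5.89% and the Cd34-low wells 6.13%, with ranges that overlapped (5.18 to 6.92% and 5.17 to 7.14%). In plate rows A to D the summed BFUE share was 6.34% and in rows E to H 5.83%, a gap wider than that between the BFUE and upper intermediate sums. A share of reads says nothing of the RNA content of the cell, so fewer ribosomal protein mRNAs per cell and a smaller RNA pool cannot be told apart.

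The 40S and 60S genes moved together between cells. Reads of 40S genes over reads of 60S genes had medians of 0.743 in BFUE, 0.721 in the lower intermediate, 0.722 in the upper intermediate and 0.736 in CFUE. Across the wells of a gate, the 40S and 60S shares had a Pearson r of 0.93 in BFUE (23 wells), 0.95 in the lower intermediate (21 wells), 0.92 in the upper intermediate (24 wells) and 0.92 in CFUE without the 2 high wells (21 wells). These are descriptions, since both shares have the same library total as denominator. The 75 mitochondrial ribosomal protein genes, which build the separate ribosome of mitochondria, are given beside them. Their median share was 0.910% in BFUE, 1.01% in the lower intermediate, 0.985% in the upper intermediate and 1.01% in CFUE. It was 0.676% in the 8 Cd34-high wells and 0.961% in the 15 Cd34-low wells.

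The CFUE wells D10 and A10 carried more than the family. D10 had 947458 reads over 6361 detected genes and A10 had 1403173 reads over 7422 genes, where the other 89 wells had at least 8246 genes. Relative to the mean of the other CFUE wells, 57 of the 79 members were at least 2-fold higher in D10, where 14.5% of 7368 genes were. At least 4-fold higher were 35 members, and the share of all genes at 4-fold was not counted. In D10 the highest were Rps21 at 10.6-fold, Rps27 at 10.3-fold and Rpl39 at 9.23-fold, all short mRNAs, and the lowest was Rps4l at 0.02-fold. In A10, 40 members were at least 2-fold higher, where 15.1% of the 7368 genes were, and 0 members were 4-fold higher. The median over members was 3.63-fold in D10 and 2.06-fold in A10, while the median over all 7368 genes was 0.0962-fold and 0.293-fold. Genes with under 1000 exon bases had median ratios of 2.73 in D10 and 1.85 in A10, and genes with 4000 or more had 0.0836 and 0.148. In both wells the ratio fell with exon length over all genes; the mitochondrially encoded share was 5.14% in D10 and 4.21% in A10, and the part of transcript length or RNA quality in the members' values was not tested. At the main settings, counts over all 79 members past 1.5-fold between gates that rest on CFUE are given below with and without them. Other CFUE values include both wells unless stated otherwise.

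Levels within the family were spread widely. Divided by the length of all annotated exons and averaged over the 4 gates, Rplp0, the scaffold of the ribosomal stalk, stood highest at 2587 CPM per exon kilobase. Rplp1, a stalk protein that binds to it, followed at 1726, then Rpl4 at 1710 CPM per exon kilobase, and Rpl32 at 1248 was also among the 5 highest. The median of the 79 members was 333.2 CPM per exon kilobase. Rplp0 kept its place in every gate, from 2391 in BFUE to 2729 CPM per exon kilobase in CFUE. The exon lengths include long non-coding isoforms, and with the length of the principal coding transcript Rplp0 had 3161 and Rpl4 had 2232 CPM per kilobase. Rplp0 was highest by both lengths. Of the 5 highest by exon length, 3 were also among the 5 highest by principal coding transcript, so the order below Rplp0 depends on the length used. Of the members with reads, the lowest were Rpl39l at 0.22, Rpl6l at 8.21, Rpl24 at 27.2, Rpl13a at 52.9 and Rps4l at 62.3 CPM per exon kilobase. Rpl24 and Rpl13a encode ordinary 60S proteins, and both overlap another annotated gene on the same strand: 69.4% of the 50-base words of Rpl24 lie in exons of Gm28037 and 57.4% of those of Rpl13a in exons of Gm45713. Both overlapping genes are listed at 0 reads in all 4 gates, and reads that could belong to either gene may be missing from both, which was not tested. Rpl6l and Rps4l are annotated as processed pseudogenes, Rps4l as a transcribed one.

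The comparison of CFUE with BFUE asks how the family changed between the later and the earlier progenitor. Of the 79 members, 4 were at least 1.5-fold higher in CFUE and 0 were lower, while 43.4% of the 8701 genes that reached 10 CPM in at least 1 of these gates passed that fold, 13.7% higher and 29.6% lower. At the smaller log2 ratio of 0.32 the members' count was 25, against 64.3% of genes, and 5 without wells A10 and D10, against 61.9%. The highest were Rps27l at a log2 ratio of 0.71, Rps21 at 0.70, Rpl24 at 0.65 and Rpl31 at 0.62, followed by Rpl36al at 0.54 and Rps15a at 0.52. Among the lowest were Rpl14 at -0.16, Rpl36 at -0.14, Rpl32 at -0.11, Rpsa at -0.09 and Rpl13 at -0.08; of these, Rpl32, Rpsa and Rpl13 were above 0 with TMM or DESeq2 scaling. The median member had a log2 ratio of 0.22, and the median of all genes was -0.14. Among genes that reached 100 CPM, the share past 1.5-fold was 31%.

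None of the 4 passed 1.5-fold without D10 alone, nor without both D10 and A10, where 41.7% of 8691 genes still did. Rps27l, a stress-inducible paralog of the 40S protein Rps27, ran from 195.4 to 555.2 CPM over BFUE wells with a median of 417.4. In CFUE it ran from 312.1 to 3811 CPM with a median of 526.5, and the highest value is D10. The summed levels were 394.1 CPM in BFUE and 644.2 CPM in CFUE, a ratio of 1.63 (95% exact interval 1.60 to 1.67, counting error only), and 516.5 CPM without the 2 wells, a log2 ratio of 0.39. The ranges of Rps27l overlapped in BFUE and CFUE, and most of its CFUE values lay in the upper part of the BFUE range. Rps21, a small 40S protein, ran from 86.9 to 222.4 CPM in BFUE and from 162.8 to 283.5 CPM in CFUE without the 2 wells, where D10 had 2182 CPM. Its log2 ratio moved from 0.70 to 0.31. Rpl31, a 60S protein on the Diamond-Blackfan list, ran from 252.7 to 429.8 CPM in BFUE (median 329.6) and from 290.3 to 573.9 CPM in CFUE without the 2 wells (median 447.6). Its medians lay between these in the intermediates, at 385.4 CPM in the lower and 392.8 CPM in the upper, and the ranges of all gates overlapped. Rpl24 had few reads in every gate, with medians of 22.4 CPM in BFUE, 23.5 in the lower intermediate, 26.7 in the upper intermediate and 31.1 in CFUE; its log2 ratio was 0.45 without the 2 wells, the largest of any member.

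**Figure D2:**
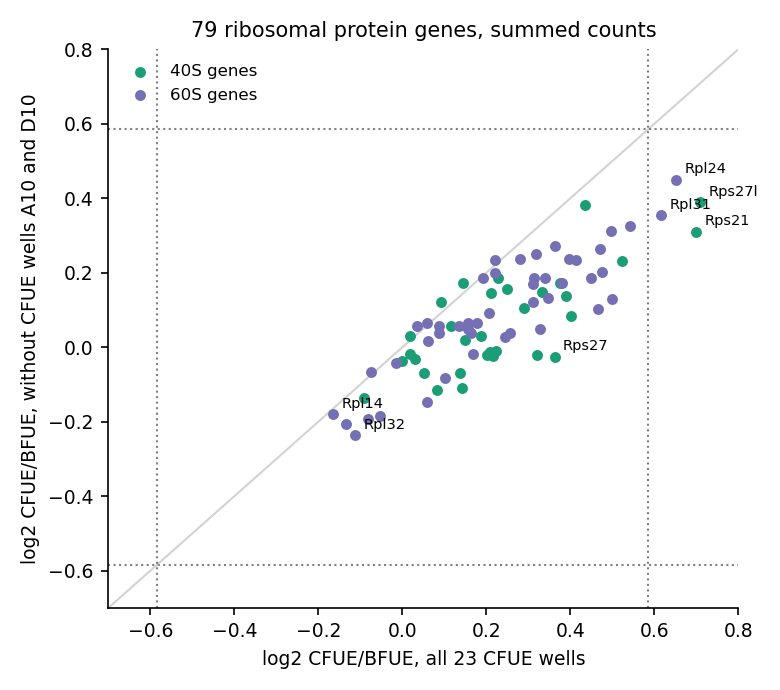
log2 ratio of CFUE over BFUE for each of the 79 members with all 23 CFUE wells (x axis) and without wells A10 and D10 (y axis); green points are 40S genes, purple points 60S genes, dotted lines 1.5-fold and the grey diagonal equal values. Rps27l, Rps21, Rpl24 and Rpl31 lie past the right dotted line and 0 members lie past the upper one.

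The functional groups of the family were counted in the same way. Between CFUE and BFUE 43.4% of all genes passed 1.5-fold, 13.7% higher and 29.6% lower. Among the 32 measured 40S genes, 2 were higher in CFUE and the median log2 ratio was 0.21; among the 47 measured 60S genes, 2 were higher and the median was 0.22. Without the 2 wells these medians were 0.03 and 0.09. The 3 stalk genes Rplp0, Rplp1 and Rplp2 had log2 ratios of 0.19, 0.34 and 0.16, none past 1.5-fold, and of 0.19, 0.18 and 0.05 without the 2 wells. Rpl5 and Rpl11, which join the 5S RNA and bind Mdm2 when assembly fails, had 0.31 and 0.18, or 0.19 and 0.07 without the 2 wells. Of the 19 Diamond-Blackfan anaemia genes, 1 (Rpl31) was higher and 0 were lower, with a median of 0.22, or 0.04 without the 2 wells. Rps19, the gene most often mutated in that disease, had 1245 CPM in BFUE and 1373 CPM in CFUE, and 1154 CPM in CFUE without the 2 wells. The direction for Rps19 thus depended on them. Members with a principal transcript under 600 bases (27 genes) had a median log2 ratio of 0.33 and those of 1000 bases or more (18 genes) had 0.11; without the 2 wells the values were 0.10 and 0.05. The 7 measured ribosomal protein genes whose symbols lie outside the rule, such as Fau and Rack1, held 0 past the fold and had a median of 0.26, or 0.11 without the 2 wells. Against Cd34-low BFUE wells 1 of the 7 passed, Rpl22l1 at 0.72, where 38.5% of all genes passed and 13.6% were higher. Without the 2 wells 0 of the 7 passed, where 37% of all genes did, and Rpl22l1 had 0.28.

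Other genes of the same pathway were counted beside the family. Of 16 further TOP mRNAs, 0 passed 1.5-fold, where 43.4% of all genes did, and the median log2 ratio was 0.10. Without the 2 wells 0 passed again, where 41.7% of all genes did, with a median of 0.11. Eef1a1, the elongation factor that brings aminoacyl-tRNA to the ribosome, had 6477 CPM in BFUE and 5003 CPM in CFUE (log2 ratio -0.37, or -0.34 without the 2 wells). Npm1, a nucleolar assembly factor, had 0.30 and Tpt1 had 0.24, or 0.27 and 0.20 without the 2 wells. Of the 10 regulators of TOP mRNAs, 9 were measured and 2 were lower in CFUE, where 29.6% of all genes were: Mtor, the kinase, at 31.2 and 17.9 CPM (log2 ratio -0.80), and Larp1, the TOP-binding repressor, at 20.9 and 12.97 CPM (-0.69). Larp1 lay close enough to 1.5-fold that the shift under TMM or DESeq2 scaling, given in the closing section, would take it back inside. The median of the 9 was -0.42, or -0.33 without the 2 wells, where Mtor had -0.70 and Larp1 -0.59. Against Cd34-low BFUE wells 2 were lower, with a median of -0.25, where 24.9% of all genes were lower; these were Larp1 at -0.83 and Eif4ebp1 at -0.79, and Mtor had -0.55. Among 74 measured mitochondrial ribosomal protein genes, 9 were higher and 0 lower, with a median of 0.24, where 13.7% of all genes were higher. Without the 2 wells 3 were higher, where 13.1% of all genes were, and the median was 0.20. Against Cd34-low BFUE wells 2 of the 74 were higher, where 13.6% of all genes were, with a median of 0.14.

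Between neighbouring gates 0 members differed by 1.5-fold. From BFUE to the lower intermediate 0 of 79 passed, where 34.4% of all genes did, and log2 ratios ran from -0.36 for Rpl32 to 0.24 for Rpl27 with a median of -0.04. The sign of that median was not stable: it was 0.03 with TMM factors and 0.06 with DESeq2 factors. Against Cd34-low BFUE wells 0 of 79 passed where 27.2% of all genes did, and log2 ratios ran from -0.31 for Rps4l to 0.18 for Rpl31. From the lower to the upper intermediate 0 of 79 passed against 16.6% of all genes, with a median of 0.07. From the upper intermediate to CFUE 0 of 79 passed against 17.7%, with a median of 0.18, or 0.05 without the 2 wells (0 of 79 against 15.8%). Against Cd34-low BFUE wells alone, 4 of 79 were higher in CFUE, where 13.6% of all genes were. Without the 2 wells it was 0 of 79, where 37% of all genes passed in either direction. The steps from BFUE to the lower intermediate and to CFUE use the same BFUE wells, and those around each intermediate share its wells.

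Taking the highest over the lowest of the 4 gates, 5 of 79 members reached 1.5-fold, against 60.3% of 8856 genes; the fifth was Rps27 at 1.58. Rps27, the partner of Rps27l, was lowest in the lower intermediate, where wells ran from 383.4 to 739.6 CPM with a median of 564.9, beside a BFUE median of 719.1 and a CFUE median of 693.0 CPM. Its ranges overlapped in all gates. Without A10 and D10, 0 members reached 1.5-fold and 58.3% of genes did; the median member then differed by 1.14-fold between its highest and lowest gate.

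Inside the BFUE gate Rpl36al differed most of all members. Between the 8 Cd34-high and the 15 Cd34-low wells, 2 of 79 members were at least 1.5-fold lower in Cd34-high wells and 0 were higher, where 55.8% of 9224 genes passed, 30.4% higher and 25.4% lower. Rpl36al, a paralog of the 60S protein Rpl36a, ran from 119.2 to 242.5 CPM with a median of 160.2 in Cd34-high wells and from 191.3 to 375.7 CPM with a median of 266.7 in Cd34-low wells. All 8 Cd34-high wells lay below the Cd34-low median, and 7 lay below every Cd34-low well. The summed levels were 163.8 and 266.4 CPM, 1.63-fold lower in Cd34-high wells (95% exact interval 1.55 to 1.71, counting error only; log2 ratio -0.70). Exons of Rpl36al overlap those of Gm49383 on the same strand (59.5% of its 50-base words), a gene whose identifier has no row in the count table. Rpl36a went the other way, from a median of 334.4 CPM in Cd34-low to 396.8 CPM in Cd34-high wells, with ranges that overlapped (log2 ratio 0.22). Leaving out each BFUE well in turn kept Rpl36al between -0.80 and -0.65. In the later gates the medians of Rpl36al were 252.6 CPM in the lower intermediate, 285.0 CPM in the upper intermediate and 291.9 CPM in CFUE, all with ranges that overlapped the Cd34-low wells.

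Rpl12, a 60S protein near the stalk base, was the other lower member, at 222.8 CPM in Cd34-high and 349.0 CPM in Cd34-low wells (log2 ratio -0.65). No Cd34-high well was in plate row D, where Rpl12 was high in every gate (described below), and 2 of the 15 Cd34-low wells were. Without row D its log2 ratio was -0.34 and only Rpl36al (-0.72) still passed 1.5-fold. The highest member was Rpl9 at 0.34. The median over members was -0.07, beside 0.03 over all genes. Of the mitochondrial ribosomal protein genes, 21 of 74 were lower and 1 was higher in Cd34-high wells, with a median of -0.42. Of all genes, 25.4% were lower and 30.4% higher, with a median of 0.03. The share of lower genes was thus near that of all genes, while the share of higher genes and the median lay below those of all genes. The marker differences between these wells are given above, and their part in the values of Rpl36al was not tested.

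**Figure D3:**
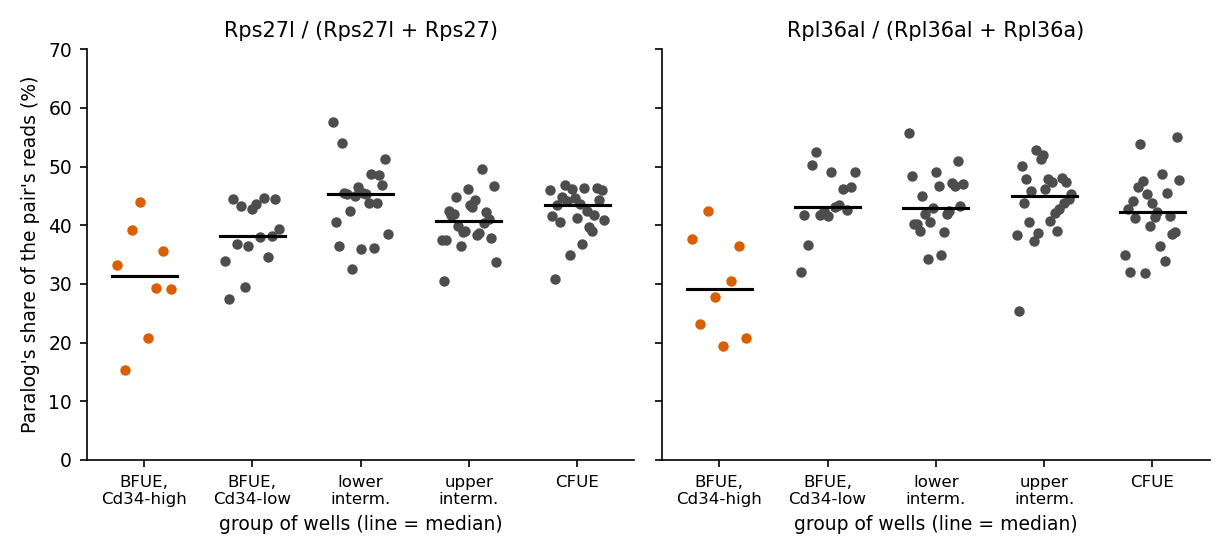
Reads of the paralog as a percent of all reads of the pair (y axis) for Rps27l with Rps27 and Rpl36al with Rpl36a, 1 point per well, black lines at the median of each group of wells (x axis); orange points are Cd34-high BFUE wells. The Rpl36al median is 29.1% in Cd34-high wells and 42.3 to 44.9% in the other groups.

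Set against its partner, Rpl36al held 19.4 to 42.5% of the pair's reads in Cd34-high wells, with a median of 29.1%, and 32.1 to 52.5% in Cd34-low wells, with a median of 43.1%. The groups overlapped, but 5 of the 8 Cd34-high wells lay below every Cd34-low well. In the later gates the medians were 42.9% in the lower intermediate, 44.9% in the upper intermediate and 42.3% in CFUE, close to the Cd34-low wells. In rows A to D the step was from a median of 32.7% in 4 Cd34-high to 41.8% in 7 Cd34-low wells. The ranges there overlapped (23.1 to 42.5% and 32.1 to 52.5%). In rows E to H it was from 25.6% in 4 Cd34-high to 44.8% in 8 Cd34-low wells. These are descriptions of few cells, since Rpl36al was named for its difference between the same wells. Rps27l behaved less cleanly. Its share of the pair was 15.3 to 44.0% in Cd34-high wells (median 31.3%) and 27.5 to 44.7% in Cd34-low wells (median 38.2%), with 2 of 8 below every Cd34-low well. In rows A to D the medians of Rps27l were 36.2 and 36.4%, and in rows E to H 29.2 and 41.1%, so that step was seen in rows E to H. The later gates had medians of 45.3, 40.7 and 43.4%. Of summed CFUE reads of the pair, Rps27l held 41.5% with the wells D10 and A10 and 42.6% without them.

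The start sites of these 4 genes are printed because the TOP motif begins at the first base of the mRNA. Each line holds 15 bases before and 15 from the RefSeq start (GRCm38.p6), 5′ to 3′ on the gene's strand, with the longest run of C and T in capitals; the windows are chr3:90213634-90213663 (minus), chr9:66946071-66946100 (plus), chrX:134585639-134585668 (plus) and chr12:69184053-69184082 (minus).
Rps27: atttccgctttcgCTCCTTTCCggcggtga
Rps27l: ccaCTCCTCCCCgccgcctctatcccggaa
Rpl36a: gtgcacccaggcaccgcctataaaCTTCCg
Rpl36al: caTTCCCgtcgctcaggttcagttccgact
Rps27 and Rps27l each have a run of 9 pyrimidines and Rpl36a and Rpl36al each one of 5 in these windows. Of the 4 runs shown, only that of Rps27 includes the RefSeq first base. RefSeq start windows matched 61 of the 83 genes. A run of at least 7 bases of C or T lay within 20 bases of the start in 37 of them (60.7%), against 27.5% of 27025 genes. In the window from 250 bases before to 50 after the start, on either strand, CCGGAAG was found in 25 (41.0%, all genes 9.93%), AAGATGG in 9 (14.8%, all genes 7.28%) and TATAAA in 6 (9.84%, all genes 15.7%). These are letter matches and do not show binding.

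The remaining l-paralogs were low or silent. Rps4l, a transcribed processed copy of the 40S gene Rps4x, ran from 0 to 240.6 CPM in BFUE, 0 to 105.9 in the lower intermediate, 0 to 218.9 in the upper intermediate and 0.61 to 218.4 CPM in CFUE. It was the most uneven member, at a level where other genes varied as much. Without A10 and D10 its coefficient of variation between wells within gates was 0.885. The median of 5488 other genes at 10 to 100 CPM was 0.891. Leaving out A10 and D10, 8 of 89 wells had 0 reads of Rps4l and 15 were at or above 2 times their gate's median. Its share of the Rps4l and Rps4x reads had well medians of 4.27, 4.09, 5.67 and 2.91% from BFUE to CFUE, and CFUE wells ran from 0.04 to 18.4%. Summed over wells the shares were 4.94, 4.67, 5.52 and 5.06%, closer to each other than the medians. Without A10 and D10 the CFUE median was 3.36%. Rpl6l held 0.65 to 0.80% of its pair's summed reads, and 61.8% of its 50-base words occur in Rpl6. Rpl39l had 28 reads, all in 1 Cd34-low BFUE well, beside 7520 BFUE reads of Rpl39; the other gates had 0 reads, which allows up to 0.08 to 0.10 CPM. Rpl3l, known from muscle, and Rpl10l, known from testis, had 0 reads in every gate, with the same limits, beside 61788 BFUE reads of Rpl3 and 35036 of Rpl10. Rpl22l1, outside the symbol rule, had a median of 47.4% of its pair with Rpl22 in Cd34-high and 39.6% in Cd34-low wells, with overlapping ranges (39.0 to 58.6% and 18.5 to 54.7%).

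**Figure D4:**
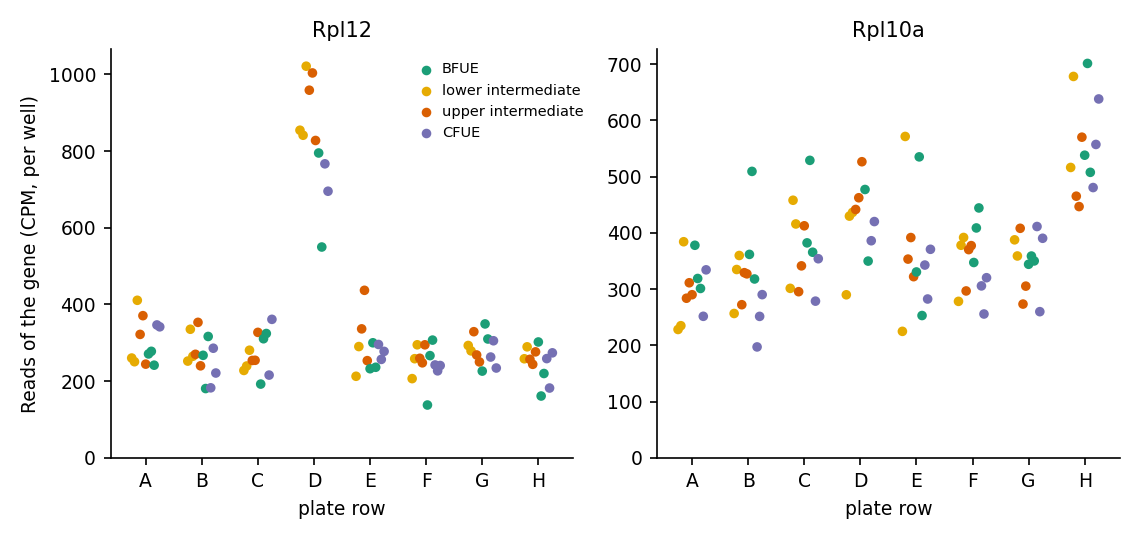
Level of Rpl12 and Rpl10a in CPM (y axis, from 0) in each of the 89 wells without A10 and D10, by plate row A to H (x axis), with colours for the 4 gates. Rpl12 lies above 549 CPM in row D and below 437 CPM in all other rows, in each gate.

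Some members varied with the row of the plate and not with the gate. Rpl12 ran from 549.9 to 1022 CPM with a median of 834.7 in the 10 wells of row D, and from 137.8 to 437.0 CPM with a median of 265.1 in the 79 wells of the other rows. The groups did not overlap, and the plot of levels by plate row shows the row D wells of all 4 gates at the higher level. Of 7863 genes at 10 CPM or more, only Rpl12 and Gm10275 had a row above every other well (0.0254%), and of the 2372 at 100 CPM or more only Rpl12 (0.0422%). Gm10275 is a transcribed processed pseudogene on chromosome 10 that shares 49.0% of the 50-base words of Rpl12. Rpl10a had a median of 537.9 CPM in row H and 348.5 CPM elsewhere, with ranges that overlapped. Counting rows whose median lay 1.5-fold from that of the other wells gave 4 of 79 members, among them Rpl12, Rpl10a and Rps4l, where 60.5% of all genes passed. Among genes at 100 CPM or more it was 3 of 76 members against 17.3%. The rows share no label other than plate position, and what sets row D apart for Rpl12 was not tested.

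**Figure D5:**
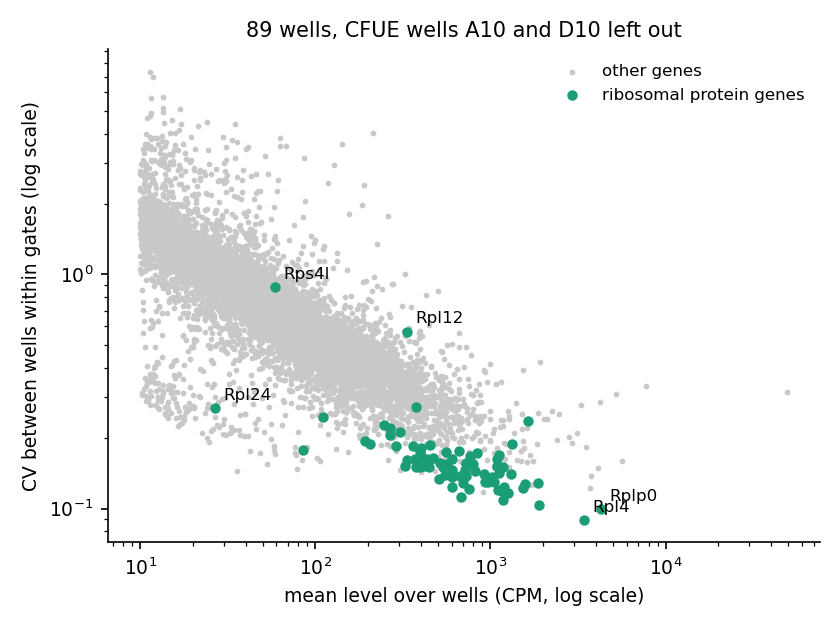
Coefficient of variation between wells within gates (y axis, log scale) against mean level in CPM (x axis, log scale) for genes at 10 CPM or more in the 89 wells without A10 and D10; green points are ribosomal protein genes and grey points are other genes. Of 79 members, 77 lie below the median of other genes of like level, and Rps4l and Rpl12 are labelled as the most variable members.

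Beyond these exceptions the members varied little from cell to cell. Between wells within gates, without A10 and D10, the median coefficient of variation was 0.172 for the 26 members at 200 to 500 CPM, beside 0.345 for 802 other genes at that level. At 500 to 1000 CPM it was 0.146 for 27 members and 0.258 for 173 other genes, and at 1000 to 5000 CPM it was 0.128 and 0.195. Of the 79 members, 77 lay below the median of other genes in their level class and 73 below the lower quartile, where 25% of other genes lie by construction. Rpl4 and Rplp0 were at the low end and Rps4l (0.885) and Rpl12 (0.570) at the high end. With all 91 wells the counts were 35 and 29 of 79, so this evenness is a property of the 89 wells and was lost when D10 and A10 were counted. Wells are cells of 1 plate, and the part of the plate in these values was not tested.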

How the data were processed

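The authors deposited 1 table of whole-number read counts per gene and well, with no normalization. Reads were aligned with STAR 2.4 to GRCm38 and counted with featureCounts, per the submitters' processing notes. Annotation, strandedness and how reads with several matches were counted: not given in the sources used here. No animal, culture or date is named in the labels.

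Wells under 50000 reads were left out. Counts were summed per gate and divided by the summed gene reads (CPM). A gene was compared where 1 of the gates reached 10 CPM, and was called at 1.5-fold. Each gate is 1 sample, so no test between gates was made. Intervals of ratios and shares are exact binomial ones at 95%, with a floor of 3 counts for a gene at 0, and cover counting error only, since reads without molecular identifiers are not independent molecules. BFUE wells were split at 100 CPM of Cd34. Exon lengths, coordinates, coding sequences and 50-base words came from GENCODE for GRCm38 (99.7% of gene identifiers matched), and start windows from RefSeq (GRCm38.p6).

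Members and gene lists were chosen with earlier results of these data known. Named were members ending in l and their partners, members past 1.5-fold, the 6 largest and 6 smallest CFUE to BFUE ratios, the 5 highest and 5 lowest levels per exon kilobase, members of the stalk, 5S and Diamond-Blackfan lists, and a few other pathway genes. Rpl10a, Rpl9, Gm10275 and Rpl22 were named after their values were seen. A few genes that the rule names, and 1 erythroid marker, are not reported here.

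Alternatives were TMM (edgeR 4.0.16) and DESeq2 1.42.0 size factors, mean CPM per well, other filters and folds, the upper or lower rows of the plate alone, leaving out single wells and, chosen after seeing the data, leaving out D10, both D10 and A10, or plate row D. The ratio computation was tested on simulated counts. Analyses used Python 3.11.15, pandas 2.3.3, SciPy 1.17.1 and R 4.3.3.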

Additional observations from a re-analysis of the deposited data

How the results depend on the processing

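Of the 79 measured members, 4 passed 1.5-fold between CFUE and BFUE, where 43.4% of 8701 genes did. The count was 11 with TMM and 11 with DESeq2 factors, which moved the median of all genes by 0.14 and 0.13 (log2), 8 with mean CPM per well, 15 in plate rows A to D, 1 in rows E to H, 25 at a log2 ratio of 0.32 (5 without A10 and D10) and 0 at 2-fold. At the log2 ratio of 0.32 the share of all genes was 64.3%, and 61.9% without A10 and D10. That share was not counted under TMM, DESeq2, mean CPM per well, either set of rows, or 2-fold. The members' count was 0 with wells of at least 1000000 reads, which leaves out D10 alone. The following were chosen after seeing the data. The count was 0 without D10, without plate row D, with wells of at least 8000 genes (which leaves out A10 and D10), and with those wells under either TMM or DESeq2. Against Cd34-low BFUE wells it was 4, 8 with TMM, 8 with DESeq2, and 0 without D10, without row D, or with wells of at least 8000 genes. With wells of at least 8000 genes, 41.7% of all genes passed against BFUE and 37% against Cd34-low BFUE wells. The share of all genes was not counted against Cd34-low wells with TMM or DESeq2. Nor was it counted in any comparison without D10 alone or without row D. Members reaching 1.5-fold over the 4 gates fell from 5 to 0 without D10 and to 0 with wells of at least 8000 genes. Between Cd34-high and Cd34-low wells the count was 1 without row D, in place of 2. The median log2 ratio of the lower intermediate to BFUE changed sign, from -0.04 to 0.0334 with TMM and 0.0605 with DESeq2. The family share of the upper intermediate was 6.62% when totals omitted globin, mitochondrially encoded and ribosomal RNA genes. With the principal coding length, the level per kilobase was 3161 for Rplp0, 2232 for Rpl4 and 41.4 for Rpl24. Of 21 named CFUE to BFUE ratios, 11 kept 1 sign under all 13 alternatives, among them the 4 past 1.5-fold, and 10 changed sign under at least 1. No paired analysis was possible because each gate is 1 sample and well positions do not link cells of different gates. With 1 sample per gate, no value above has an error between animals, and gate and plate column cannot be told apart.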
